A study of Mus musculus with 9 samples.

Results

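The genes described here are 9 potassium channel subunits of the heart: Kcnd2, Kcnd3, Kcnip2, Kcna5, Kcnq1, Kcnh2, Kcnj2, Kcnj11 and Abcc9. They were chosen by name, as genes of the repolarising currents and of the ATP-sensitive potassium (KATP) channel, and they are 9 of 54660 gene identifiers and 165 of 480017 exonic parts in the data. An exonic part is a piece of an exon bounded by annotated exon edges. Hearts of mice aged 12 weeks were sequenced in 3 groups of 3 libraries each: wild-type mice, mice heterozygous for an edited Rbm20 allele, and mice homozygous for it. The allele was made with CRISPR/Cas and carries a deletion of 2 bases, c.1121_1122delAG, which shifts the reading frame at p. Q374. The tissue is labelled heart, with no chamber given. The labels do not say whether each library came from its own mouse, so a p-value here reflects variation between libraries, which may be technical.

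Potassium channels end the cardiac action potential. In mouse ventricle, Kv4 pore subunits (Kcnd2, Kcnd3) with the cytosolic partner KChIP2 (Kcnip2) carry the fast transient outward current, Kv1.5 (Kcna5) a fast delayed rectifier, and Kir2.1 (Kcnj2) the inward rectifier that holds the resting potential. Kcnq1 and Kcnh2 form the slow and rapid delayed rectifiers that dominate repolarisation in large mammals. Kir6.2 (Kcnj11) and the sulfonylurea receptor SUR2 (Abcc9) form the KATP channel, which opens when the cell runs short of ATP. RBM20, a splicing factor of heart and skeletal muscle, binds RNA at UCUU elements.

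Expression is given as CPM, inclusion reads summed over a gene's parts and scaled to the library's size, and inclusion as PSI, a fraction from 0 to 1 of transcripts that hold a part. A library held 297 to 323 M inclusion reads, and each member had at least 1156 reads in every library. Rbm20 itself was 113 ± 16 CPM in wild-type hearts, 81.3 ± 11.5 CPM with the allele on 1 chromosome and 57.5 ± 7.49 CPM in homozygotes (SD, n = 3). In these bulk hearts, fewer cells of a type and less RNA per cell cannot be told apart. The library numbers in the labels fall into 2 series, and all 3 homozygous libraries share one with wild-type library 1 and heterozygous libraries 1 and 2. The side of a gene here means the parts before (5′) or after (3′) the midpoint of its summed part length. The median share of a gene's reads on its 3′ side, over 12664 genes, was 52.6% to 56.1% in wild-type, 52.7% to 57.1% in heterozygous and 55.8% to 61.2% in homozygous libraries, highest in homozygous library 2.

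Kcnd2, Kcnj11 and Abcc9 had lower RNA in homozygous than in wild-type hearts, to 42.7%, 65.7% and 60.0% of the wild-type mean. These were 3 of 9 members called at an adjusted p under 0.05, all lower, against 4.39% of all 22049 genes called in either direction and 2.52% called lower (edgeR's quasi-likelihood test with Benjamini-Hochberg adjustment over all genes). The median log2 fold change of the 9 members was -0.61, with 7 below 0, and that of all genes was -0.003. In 5 members, Kcnd2, Kcnip2, Kcnh2, Kcnj11 and Abcc9, every homozygous library lay below every wild-type library, as it did in 16.1% of all genes. Kcna5 alone among the 9 had every homozygous library above every wild-type library (1 of 9), as did 14.4% of all genes. For orders that involve heterozygous libraries, given for single members below, the share of all genes was not counted.

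**Figure D1:**
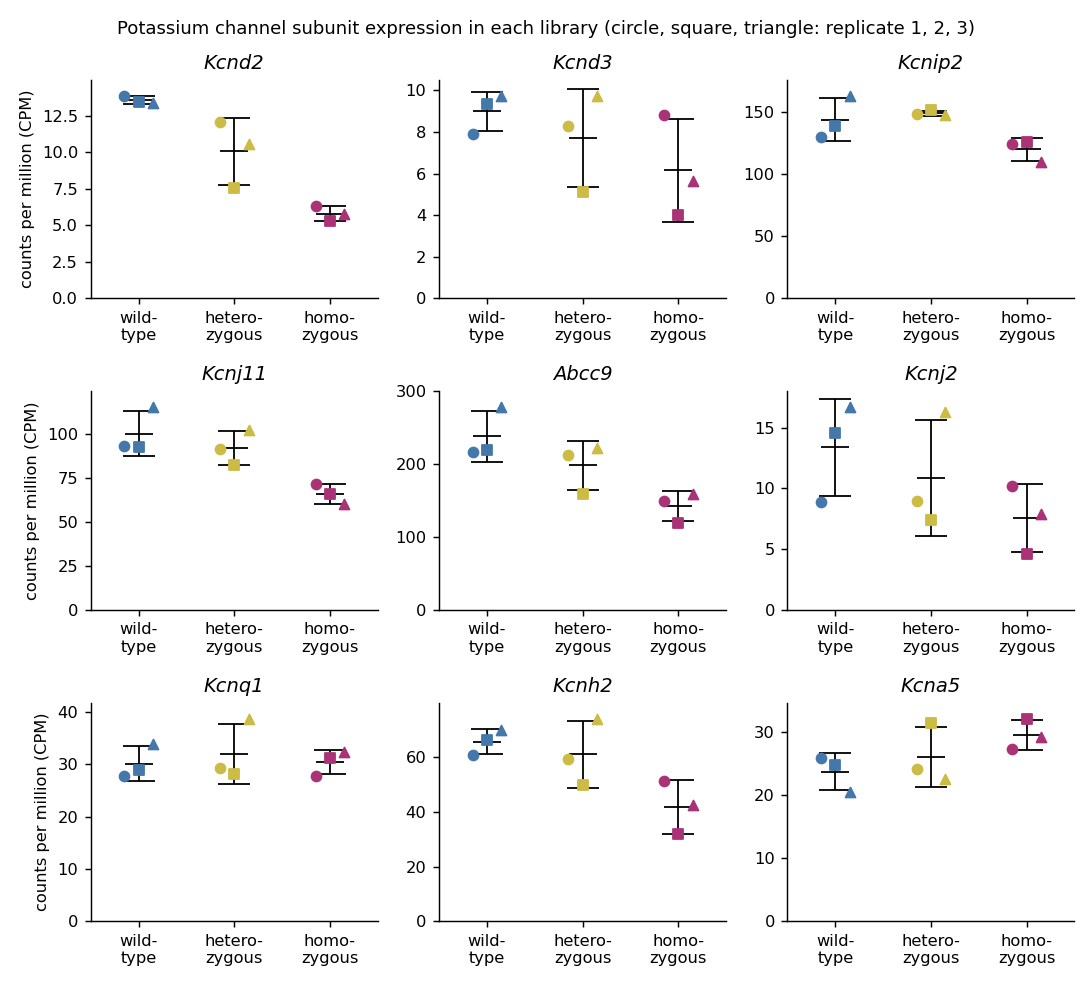
Expression of the 9 subunits in CPM (y axes from 0) in each of the 9 libraries, by genotype, with the group mean and its SD as black bars (n = 3). Kcnd2 falls from 13.4 to 13.9 CPM in wild-type libraries to 5.30 to 6.33 CPM in homozygous ones with heterozygous libraries between, while Kcnq1 overlaps in all 3 groups.

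Kcnd2 encodes Kv4.2, a pore subunit of the fast transient outward current. It lies on GRCm39 at chr6:21215502-21729804 and has 6 parts, each with a PSI above 0.95 in every library. Its level was 13.9, 13.5 and 13.4 CPM in the wild-type libraries, 12.1, 7.59 and 10.5 CPM in the heterozygous ones, and 6.33, 5.30 and 5.78 CPM in the homozygous ones. The 3 groups did not overlap: every homozygous library lay below every heterozygous one, and these lay below the wild-type libraries. How many of all genes have this order was not counted. The log2 fold change of homozygous against wild-type hearts was -1.23 (SE 0.153, 95% interval -1.56 to -0.89, edgeR adjusted p = 0.0021).

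Kcnd2 was also the member called between homozygous and heterozygous hearts, at a log2 fold change of -0.80 (SE 0.152, edgeR adjusted p = 0.0379). There 1 of 9 members was called, against 0.948% of all genes called and 0.44% called lower. That call was lost when any 1 library other than heterozygous 2 was left out, with edgeR adjusted p between 0.0572 and 0.146 and log2 fold changes between -0.86 and -0.64. Heterozygous hearts differed from wild-type hearts by -0.43 on the log2 scale (SE 0.151), with an unadjusted p of 0.016 that did not pass adjustment over all genes.

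The fall in Kcnd2 was present in all 6 of its parts. The log2 ratio of homozygous to wild-type mean CPM was -1.57 to -1.40 in parts 1 to 5, among them the 1911-base first part, and -0.95 in the last part of 2641 bases. Counted over the 3′ side of each gene alone, Kcnd2 differed by -1.02 (edgeR adjusted p = 0.0031), and over the 5′ side alone by -1.45 (edgeR adjusted p = 0.0068). The share of Kcnd2 reads on the 3′ side was 42.5% to 53.9% in wild-type and 57.1% to 65.3% in homozygous libraries. How far the 3′ weighting of the homozygous libraries enters the size of this fall was not tested beyond these counts.

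Kcnd3 encodes Kv4.3, the other Kv4 pore subunit. It measured 7.92, 9.34 and 9.71 CPM in wild-type, 8.28, 5.13 and 9.74 CPM in heterozygous, and 8.84, 3.99 and 5.64 CPM in homozygous libraries. Homozygous library 1 lay within the wild-type range, and the second heterozygous and homozygous libraries were the lowest of the 9. The difference of -0.55 between homozygous and wild-type hearts (SE 0.279, 95% interval -1.16 to 0.07) did not pass the test (edgeR adjusted p = 0.273).

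Kcnip2 encodes KChIP2, the calcium-binding partner that brings Kv4 channels to the membrane. It was the most abundant member per length. Its level was 130, 139 and 163 CPM in wild-type, 149, 152 and 148 CPM in heterozygous, and 124, 126 and 110 CPM in homozygous libraries. All 3 homozygous libraries lay below the other 6, but by little: the log2 fold change was -0.26 against wild-type (SE 0.099, edgeR adjusted p = 0.148) and -0.32 against heterozygous hearts (SE 0.0991, edgeR adjusted p = 0.19).

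Kcna5, which encodes Kv1.5, moved the other way in value. It measured 25.9, 24.9 and 20.5 CPM in wild-type, 24.2, 31.5 and 22.6 CPM in heterozygous, and 27.4, 32.1 and 29.3 CPM in homozygous libraries. The log2 fold change of 0.32 between homozygous and wild-type hearts (SE 0.136, 95% interval 0.02 to 0.62) did not pass adjustment (edgeR adjusted p = 0.198). The gene is 1 part on GRCm39, at chr6:126509514-126512375.

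Kcnq1, the pore of the slow delayed rectifier, showed no difference in its sum. Wild-type libraries had 27.7, 28.9 and 33.9 CPM, heterozygous ones 29.3, 28.2 and 38.7 CPM, and homozygous ones 27.8, 31.2 and 32.3 CPM. The difference between homozygous and wild-type hearts was 0.01 on the log2 scale, with a 95% interval of -0.27 to 0.30. Kcnq1 shares its locus with the antisense RNA Kcnq1ot1, and whether the authors' counting used strand is not given in the sources used here.

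Kcnh2 encodes ERG, the pore of the rapid delayed rectifier. Its level was 60.5, 66.2 and 69.6 CPM in wild-type, 59.3, 49.6 and 73.7 CPM in heterozygous, and 51.1, 31.7 and 42.4 CPM in homozygous libraries. Every homozygous library lay below every wild-type one, while homozygous library 1 lay above heterozygous library 2. The log2 fold change of -0.65 (SE 0.175, 95% interval -1.03 to -0.27) narrowly missed the threshold (edgeR adjusted p = 0.0614), and 7 of 20 alternative analyses passed it.

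Kcnj2, which encodes Kir2.1, varied too much between libraries for its difference of -0.82 to pass (SE 0.342, 95% interval -1.58 to -0.07, edgeR adjusted p = 0.186). Wild-type libraries had 8.91, 14.6 and 16.7 CPM, heterozygous ones 8.93, 7.4 and 16.3 CPM, and homozygous ones 10.2, 4.63 and 7.93 CPM. The 3 libraries of the second number series, wild-type 2 and 3 and heterozygous 3, were the 3 highest. Within the first series, homozygous libraries differed from wild-type library 1 by -0.23 on the log2 scale, and 2 of the 3 lay below it.

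**Figure D2:**
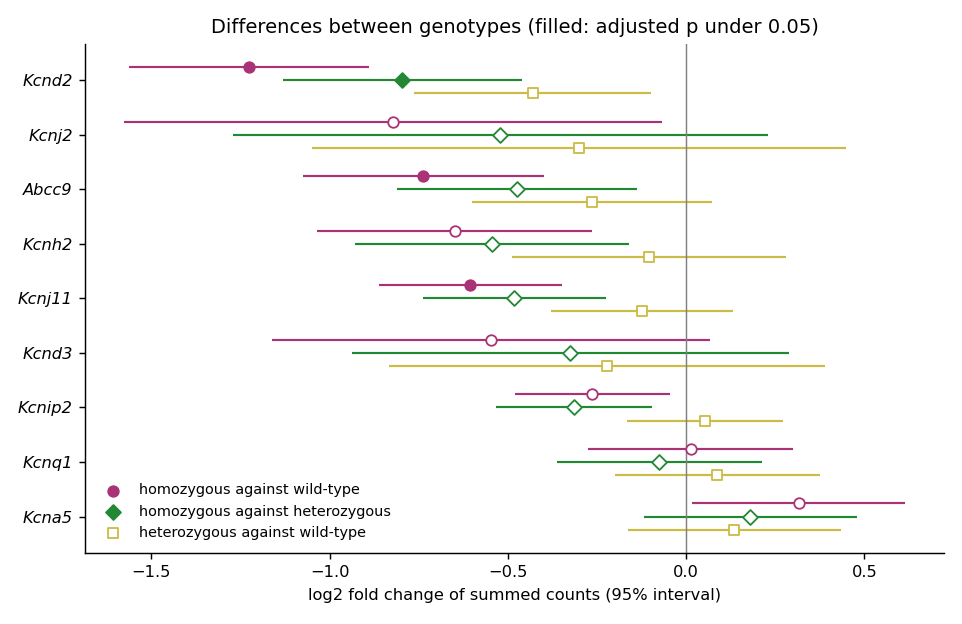
Log2 fold changes of the 9 subunits with 95% intervals (x axis) for the 3 genotype comparisons, ordered by homozygous against wild-type. Filled symbols have an adjusted p under 0.05: Kcnd2, Abcc9 and Kcnj11 for homozygous against wild-type, and Kcnd2 for homozygous against heterozygous hearts.

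Kcnj11 encodes Kir6.2, the pore of the KATP channel. Its level was 93.2, 92.3 and 115 CPM in wild-type, 91.3, 82.3 and 102 CPM in heterozygous, and 71.2, 66.0 and 60.1 CPM in homozygous libraries. The homozygous libraries lay below the other 6, and heterozygous and wild-type libraries overlapped. The log2 fold change against wild-type was -0.61 (SE 0.116, 95% interval -0.86 to -0.35, edgeR adjusted p = 0.018), and against heterozygous hearts it was -0.48 (SE 0.116, edgeR adjusted p = 0.0923). Of the 14 parts, 12 had a lower mean in homozygous hearts. The 2 that did not are the last at the 3′ end, both under 0.5 CPM.

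Abcc9 encodes SUR2, the regulatory subunit of the cardiac KATP channel, on GRCm39 at chr6:142533588-142648041. Its level was 217, 219 and 278 CPM in wild-type, 213, 160 and 222 CPM in heterozygous, and 150, 119 and 159 CPM in homozygous libraries. Homozygous libraries lay below all the others, the highest of them just under heterozygous library 2, and homozygous library 2 was the lowest of the 9. The log2 fold change was -0.74 against wild-type (SE 0.154, 95% interval -1.08 to -0.40, edgeR adjusted p = 0.0252) and -0.47 against heterozygous hearts (SE 0.153, edgeR adjusted p = 0.199).

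The size of the Abcc9 fall changed along the transcript. All 47 parts had a lower mean in homozygous hearts, with log2 ratios from -1.34 to -0.16, and the part at the 3′ end, 1269 bases long, differed by -0.17. The 3′ side of each gene alone gave -0.62 (edgeR adjusted p = 0.0088) and the 5′ side alone -0.97 (edgeR adjusted p = 0.0753). The share of Abcc9 reads on the 3′ side was 65.3%, 61.0% and 56.2% in wild-type, 57.3%, 68.6% and 57.8% in heterozygous, and 67.1%, 76.9% and 63.3% in homozygous libraries. In Kcnj11 the log2 ratios ran from -0.94 in the part at the 5′ end to 0.20 at the 3′ end, and its share of reads on the 3′ side was 32.9% to 36.4% in wild-type and 36.4% to 40.2% in homozygous libraries. Kcnq1, which had no difference in sum, also had values that rose along its transcript, from -0.41 in the first part with enough reads to 0.26 in the last.

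**Figure D3:**
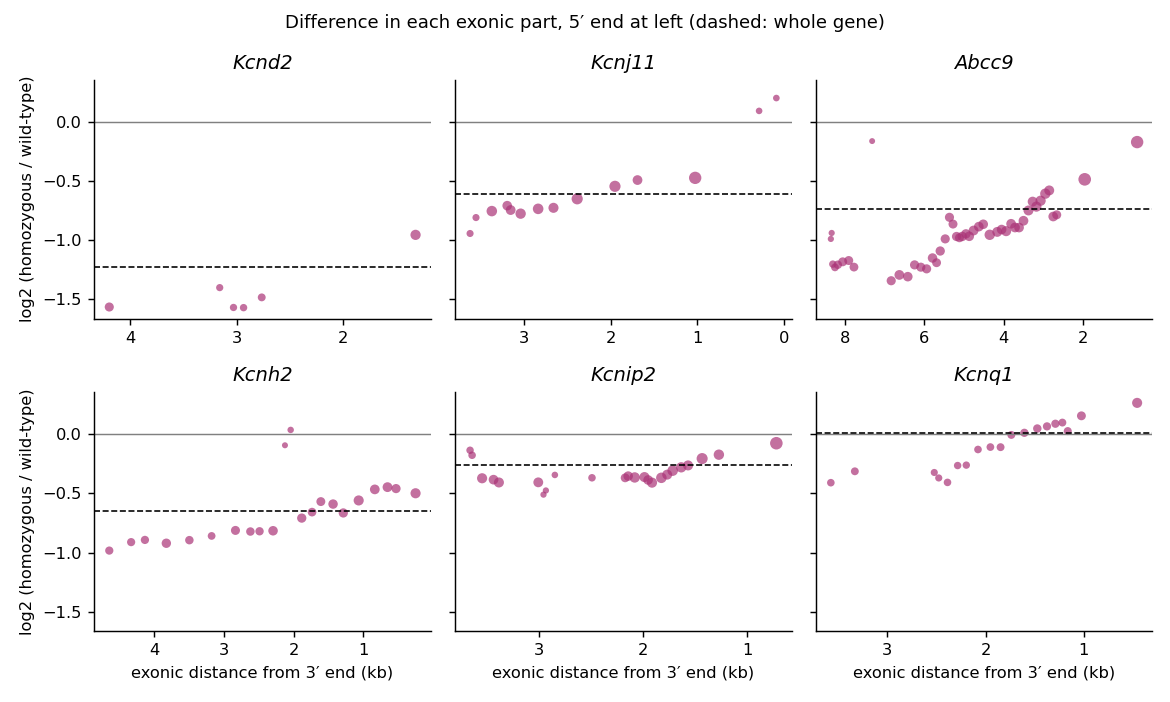
Log2 ratio of homozygous to wild-type mean CPM in each exonic part (y axes) against the exonic distance of its midpoint from the gene's 3′ end (x axes, kb, 5′ end at left), for 6 subunits and parts with at least 20 reads in each wild-type library; larger points have more reads and the dashed line is the fold change of the whole gene. Values tend to rise towards the 3′ end in Abcc9, Kcnj11, Kcnh2 and Kcnq1, the long 3′ part of Kcnip2 is its highest at -0.08, and all 6 parts of Kcnd2 lie at -0.95 or lower.

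Kcnj11 and Abcc9 lost their calls when some single libraries were left out, at log2 fold changes of -0.60 to -0.49 for Kcnj11 and -0.79 to -0.61 for Abcc9. In those fits 295 to 380 of all genes were called, against 969 with all libraries. Without wild-type library 3 their edgeR adjusted p values were 0.077 and 0.108, and without homozygous library 2 they were 0.0609 and 0.0908. Kcnj11 also lost its call without homozygous library 3 (edgeR adjusted p = 0.071), and Abcc9 without wild-type library 2 (edgeR adjusted p = 0.0604). Kcnd2 kept an edgeR or DESeq2 adjusted p of at most 0.0158 in all 20 alternatives. Within the first library series, every homozygous library lay below wild-type library 1 for Kcnd2, Kcnj11 and Abcc9, by -1.26, -0.50 and -0.61 on the log2 scale of their means. With the series as a covariate, Kcnd2 was called and Kcnj11 (edgeR adjusted p = 0.118) and Abcc9 (edgeR adjusted p = 0.162) were not, at -0.48 and -0.59; 297 of all genes were called in that fit, and the first series holds 1 wild-type library.

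Heterozygous hearts gave no called member. By edgeR 0 of 9 members, and 0% of all genes, passed against wild-type; 1 member, Kcnd2, had an unadjusted p under 0.05, as did 712 of 22049 genes. DESeq2 called 0 members and 22 genes. The mean of heterozygous libraries was between 74.3% (Kcnd2) and 106% (Kcnq1) of wild-type in 8 members and 110% in Kcna5.

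Per length of constitutive sequence, wild-type hearts ranked the members from Kcnip2 to Kcnd3. The levels, in CPM per kb over parts with a mean PSI of at least 0.95, with 148 bases added to the length of each part as in the PSI, were 25.5 ± 2.94 for Kcnip2, 17.1 ± 2.21 for Kcnj11, 16.6 ± 2.43 for Abcc9 and 9.07 ± 0.623 for Kcnh2 (SD, n = 3). Kcna5 followed at 7.89 ± 0.965, Kcnq1 at 4.46 ± 0.487, Kcnj2 at 2.33 ± 0.70, Kcnd2 at 2.25 ± 0.0433 and Kcnd3 at 0.873 ± 0.0910 CPM per kb. The libraries of Kcnj11 and Abcc9 overlapped, as did those of Kcnh2 and Kcna5 and those of Kcnj2 and Kcnd2, and no order is read between these neighbours. By plain part length, which gives genes of many short parts higher values, the means were 31.1 for Abcc9 and 26.7 for Kcnj11, 8.6 for Kcnq1 and 8.3 for Kcna5, and 2.64 for Kcnd2 and 2.46 CPM per kb for Kcnj2, so these pairs change places with the length used. In homozygous hearts Kcnd2 stood at 0.961 ± 0.0860 CPM per kb and Kcnd3 at 0.60 ± 0.217 CPM per kb.

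The inclusion of exonic parts was then compared, because RBM20 acts on splicing. Of the 165 member parts, 159 had at least 10 reads in every library; 125 of these stayed above a PSI of 0.95, 8 stayed below 0.05, and 26 varied and were tested. In no comparison was a member part called at an adjusted p under 0.05 with a PSI difference of at least 0.1. The 0 of 26 stands against 0.413% of 55648 parts called in homozygous against wild-type hearts, 0.0755% in heterozygous against wild-type and 0.264% in homozygous against heterozygous hearts (limma, Benjamini-Hochberg adjustment over all tested parts). At an unadjusted p under 0.05 there were 2, 2 and 0 member parts, against 7.69%, 4.04% and 6.93% of all parts. Kcnd2, Kcnj2 and Kcna5 had no part that varied. The share of all tested parts whose groups do not overlap in PSI was not counted, so no such order below is set against it.

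The member part with the smallest p was part 28 of Abcc9, an exon of 105 bases on GRCm39 at chr6:142604224-142604328. Its PSI was 0.920, 0.916 and 0.932 in wild-type libraries, 0.993, 0.986 and 0.993 in heterozygous ones, and 0.984, 1 and 1 in homozygous ones. Reads that skip the exon numbered 44, 49 and 51 in wild-type, 4, 6 and 5 in heterozygous, and 6, 0 and 0 in homozygous libraries. Both mutant groups lay above every wild-type library and overlapped with each other. The PSI difference was 0.0717 for homozygous against wild-type hearts (SE 0.0137, limma adjusted p = 0.112) and 0.0678 for heterozygous against wild-type hearts (SE 0.0137, limma adjusted p = 0.338). Both comparisons share the wild-type libraries, and neither passed the adjustment or the size threshold. The difference between homozygous and heterozygous hearts was 0.0039 (95% interval -0.0273 to 0.0352).

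The exon was matched to GENCODE M21, on the build GRCm38, where all 88 exon edges of Abcc9 lie at one constant spacing from the deposited parts. It is exon 16 of 41 of transcript Abcc9-202, entirely coding and a multiple of 3 bases, and of the 6 annotated transcripts 3 hold it and 2 span it without it. Its sequence is shown because it is the exon whose inclusion differed most in p. UCUU, the RBM20 element, is TCTT in these letters and was searched on the transcribed strand alone. Here and for the exons below, only exon sequence was searched, and introns were not. The exon holds none, and 33.3% of 1551 coding exons of that length in GENCODE M21 hold at least 1. Here and below, such shares count internal exons that are coding throughout.
Abcc9 exon of part 28, GRCm38 chr6:142658498-142658602, minus strand: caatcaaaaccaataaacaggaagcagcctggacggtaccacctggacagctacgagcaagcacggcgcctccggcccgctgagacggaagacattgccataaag

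The 3′ end of Abcc9 decides between SUR2A, known as the form of heart and skeletal muscle, and SUR2B, known from smooth muscle. Parts 3 and 4 together form an exon of 176 bases, at chr6:142539693-142539868 on GRCm39, which SUR2A transcripts hold and SUR2B transcripts skip. The PSI of part 4 was 0.585, 0.538 and 0.583 in wild-type, 0.575, 0.527 and 0.572 in heterozygous, and 0.529, 0.468 and 0.514 in homozygous libraries. The homozygous libraries lay below the wild-type ones, with the highest homozygous value within the heterozygous range. The difference of -0.0654 (SE 0.0447, 95% interval -0.167 to 0.0366) did not pass (limma adjusted p = 0.749), and part 3 gave -0.0641. Skipping reads numbered 542 to 566 in wild-type and 360 to 409 in homozygous libraries. Both forms were read in every library. Markers of smooth muscle and pericytes, where SUR2B is known, summed to 677 to 778 CPM in wild-type and 625 to 738 CPM in homozygous libraries, with 0 of 8 called.

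The coding ends of the 2 forms are shown because they are the sequence that the choice replaces. Each is 135 bases before the stop codon, with TCTT in capitals. The SUR2A end holds 3 and the SUR2B end 1, and 43.6% of 1251 coding exons of 135 bases hold at least 1. That set is unlike these ends, which are the coding pieces of exons of 176 and 2642 bases. The rest of these exons was not searched.
SUR2A end, exon 39 of Abcc9-201, GRCm38 chr6:142594008-142594142, minus strand: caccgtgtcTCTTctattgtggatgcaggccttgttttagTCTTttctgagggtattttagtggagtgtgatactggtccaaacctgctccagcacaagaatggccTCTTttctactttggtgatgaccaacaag
SUR2B end, exon 40 of Abcc9-203, GRCm38 chr6:142590369-142590503, minus strand: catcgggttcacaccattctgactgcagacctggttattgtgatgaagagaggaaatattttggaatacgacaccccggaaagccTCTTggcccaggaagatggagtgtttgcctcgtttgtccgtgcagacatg

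Kcnip2 varies at its amino terminus, where exons are included or skipped to give the KChIP2 isoforms. Part 16, an exon of 54 bases at chr19:45784718-45784771 on GRCm39, had a PSI of 0.473, 0.486 and 0.486 in wild-type, 0.482, 0.482 and 0.437 in heterozygous, and 0.505, 0.477 and 0.490 in homozygous libraries. The groups overlapped, and the difference between homozygous and wild-type hearts was 0.0092 with a 95% interval of -0.0831 to 0.102. Part 21, an exon of 96 bases at chr19:45785530-45785625, had 0.826, 0.80 and 0.772 in wild-type, 0.783, 0.805 and 0.740 in heterozygous, and 0.783, 0.772 and 0.744 in homozygous libraries. The difference there was -0.0334 (95% interval -0.112 to 0.0455, limma adjusted p = 0.777). Each library had at least 378 skipping reads for part 16 and 180 for part 21. Parts 17 to 20 fill the stretch between these 2 exons without a gap, at a mean PSI of 0.039 to 0.048 in wild-type hearts. Some inclusion reads of parts 16 and 21 may therefore come from transcripts that hold them. Part 10, of 108 bases, was included at 0.95 ± 0.0070 in wild-type hearts and 0.952 ± 0.0046 in homozygotes (SD, n = 3).

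Both Kcnip2 exons are a multiple of 3 bases and coding in GENCODE M21, and they are shown because they distinguish the isoforms counted above. Neither holds TCTT, which 16.6% of 1214 coding exons of 54 bases and 32.6% of 1641 of 96 bases do.
Kcnip2 exon of part 16, GRCm38 chr19:45796279-45796332, minus strand: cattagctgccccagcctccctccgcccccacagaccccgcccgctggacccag
Kcnip2 exon of part 21, GRCm38 chr19:45797091-45797186, minus strand: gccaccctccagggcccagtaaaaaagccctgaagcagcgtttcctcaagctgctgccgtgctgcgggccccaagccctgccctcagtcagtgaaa

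Kcnd3 has a long and a short form that differ by a coding exon of 57 bases, part 10, at chr3:105574278-105574334 on GRCm39. Its PSI was 0.918, 0.82 and 0.90 in wild-type, 0.917, 1 and 0.756 in heterozygous, and 1, 1 and 0.762 in homozygous libraries. Inclusion reads numbered 10 to 71 and skipping reads 0 to 14 per library. Part 10 directly adjoins part 9, of 1415 bases, and part 11, of 571 bases. Their mean PSI in wild-type hearts was 0.372 and 0.344. Inclusion reads of part 10 may therefore also come from transcripts that hold these flanking parts. The PSI spread widely within groups. The difference of 0.0415 between homozygous and wild-type hearts had a 95% interval of -0.137 to 0.22, which takes in a shift of 0.1 either way. The exon, which the long form includes, holds TCTT once, in capitals, as 19.3% of 703 coding exons of that length hold it.
Kcnd3 exon of part 10, GRCm38 chr3:105666962-105667018, plus strand: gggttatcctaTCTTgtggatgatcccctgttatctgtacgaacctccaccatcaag

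Parts of the other members also missed the test. In Kcnh2, part 12 of 118 bases had a PSI of 0.094, 0.120 and 0.122 in wild-type, 0.127, 0.111 and 0.212 in heterozygous, and 0.185, 0.158 and 0.209 in homozygous libraries. Every homozygous library lay above every wild-type one, and the difference of 0.0719 had an unadjusted p of 0.0366 (limma adjusted p = 0.608). In Kcnq1, part 22 of 47 bases had a PSI of 0.922 ± 0.0064 in wild-type hearts, 0.966 ± 0.0143 in heterozygotes and 0.945 ± 0.0115 in homozygotes (SD, n = 3), with an unadjusted p of 0.0285 for heterozygous against wild-type hearts that did not pass adjustment. In Kcnj11, part 3, of 1257 bases, had a PSI of 0.966 ± 0.0064 in wild-type hearts and 0.947 ± 0.0050 in homozygotes, a difference of -0.0190 (limma adjusted p = 0.749).

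**Figure D4:**
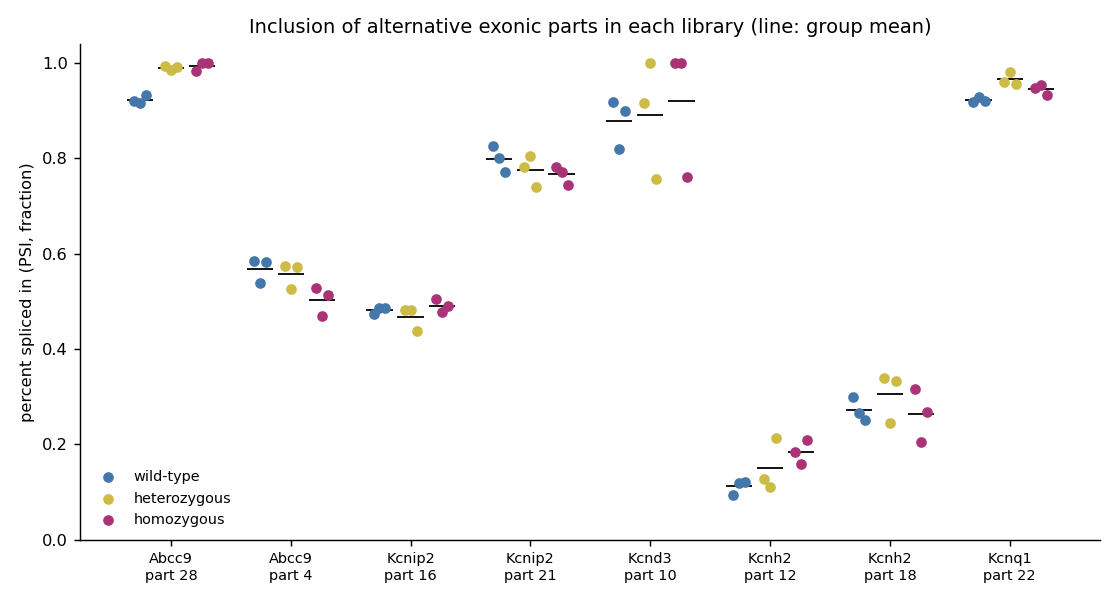
Percent spliced in (PSI, fraction, y axis from 0) of 8 alternative parts of Abcc9, Kcnip2, Kcnd3, Kcnh2 and Kcnq1 in each library, coloured by genotype, with the group mean as a line (n = 3). Part 28 of Abcc9 lies between 0.916 and 0.932 in wild-type and at 0.984 or higher in both mutant groups, whereas groups overlap in the Kcnip2 exons.

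The other potassium channel genes that were called were all lower in homozygous hearts. Of 53 further subunits listed, 50 were tested, and 5 were called lower and 0 higher in homozygous than in wild-type hearts, where 2.52% of all genes were called lower. The median of the 50 was -0.18, with 34 below 0. In this list, 11 of 50 had an unadjusted p under 0.05, against 22.7% of all genes, and no gene was called in heterozygous against wild-type or in homozygous against heterozygous hearts.

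Among 18 other voltage-gated subunits, Kcna7, a Kv1 pore subunit, and Kcnv2, a silent subunit that modifies Kv2 channels, were called. Kcnv2 measured 7.86, 6.92 and 6.89 CPM in wild-type and 4.22, 3.69 and 3.94 CPM in homozygous libraries, which do not overlap (log2 fold change -0.87, SE 0.146, edgeR adjusted p = 0.0094). Kcna7 measured 3.71, 3.68 and 3.71 CPM in wild-type and 2.28, 1.82 and 2.26 CPM in homozygous libraries (log2 fold change -0.80, SE 0.176, edgeR adjusted p = 0.0311).

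Of 11 accessory subunits, Kcne1, the small partner of Kcnq1 in the slow delayed rectifier, was called. It had 1.84, 2.37 and 2.53 CPM in wild-type, 1.27, 1.43 and 2.58 CPM in heterozygous, and 0.690, 0.920 and 1.01 CPM in homozygous libraries (log2 fold change -1.37, SE 0.274, edgeR adjusted p = 0.0218). Kcne1 fell in hearts in which the sum of Kcnq1 differed by 0.01.

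Of 8 other inward rectifier and KATP subunits, Kcnj3 and Kcnj4 were called. Kcnj3 encodes GIRK1, the pore of the acetylcholine-activated current known from atria, and had 34.3, 31.9 and 35.8 CPM in wild-type, 31.7, 21.3 and 49.8 CPM in heterozygous, and 18.7, 12.4 and 17.5 CPM in homozygous libraries (log2 fold change -1.07, SE 0.253, edgeR adjusted p = 0.0405). Kcnj4, which encodes Kir2.3, was scarce, at 0.174 to 0.405 CPM in wild-type and 0.0548 to 0.0753 CPM in homozygous libraries (log2 fold change -2.22, SE 0.441, edgeR adjusted p = 0.0213). Of 5 atrial markers 0 were called in any comparison. In homozygous against wild-type hearts 0 had an unadjusted p under 0.05, while 4 of 5 lay below 0, with a median log2 fold change of -2.28. In homozygous against heterozygous hearts 4 of 5 had an unadjusted p under 0.05, against 14.1% of all genes, with a median of -5.31. The atrial markers summed to 107, 26.8 and 30.6 CPM in wild-type, 9.99, 16.4 and 1082 CPM in heterozygous, and 15.9, 14.6 and 29.6 CPM in homozygous libraries. Heterozygous library 3, the highest in Kcnj3, was also far the highest in atrial markers. It was the highest library in Kcnh2 and Kcnq1 too, and by little in Kcnd3 and Kcne1, but not in the other members. The part of atrial tissue in these values was not tested. None of the 13 two-pore and calcium-activated channels was called, with 2 of 13 at an unadjusted p under 0.05, against 22.7% of all genes.

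**Figure D5:**
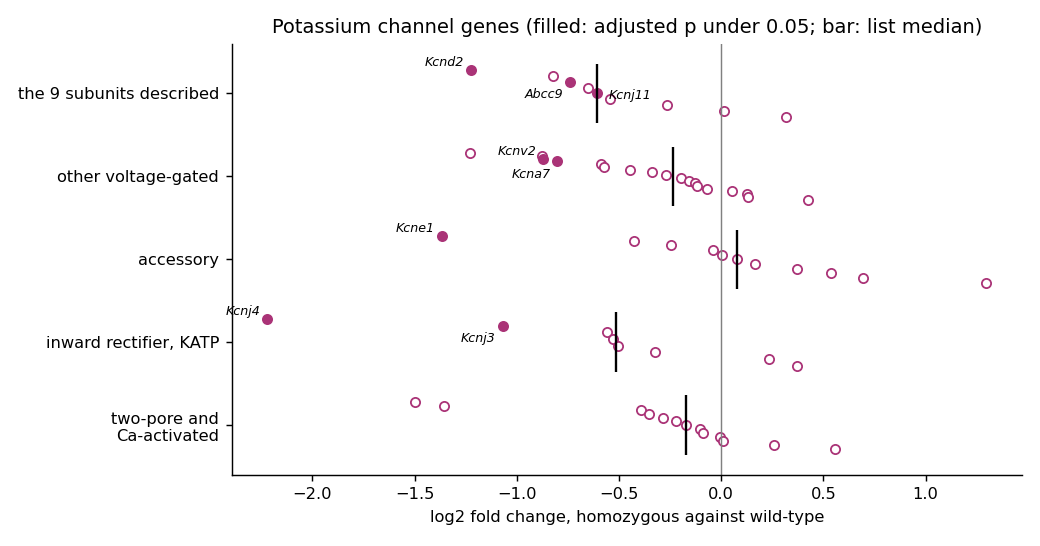
Log2 fold changes of homozygous against wild-type hearts (x axis) for the 9 subunits and 4 lists of other potassium channel genes, 1 point per gene, with the list median as a bar and genes of an adjusted p under 0.05 filled and named. The filled genes all lie below 0, and the medians of the 9 subunits and of the other inward rectifiers, -0.61 and -0.52, are the lowest.

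Of 13 anchoring proteins and transcription factors of these channels, 1 was called in homozygous against wild-type hearts, against 4.39% of all genes. It was Actn2, which encodes the Z-disc protein alpha-actinin-2 and rose by 0.34 on the log2 scale (SE 0.0845, edgeR adjusted p = 0.047). By edgeR 7 of 13 had an unadjusted p under 0.05, against 22.7% of all genes. Ventricular cardiomyocyte markers, 7 genes tested, summed to 69133 to 79709 CPM in wild-type, 67099 to 79381 CPM in heterozygous and 84406 to 96217 CPM in homozygous libraries. Of these 7, 1 was called higher, Myl2 (log2 fold change 0.79, SE 0.191, edgeR adjusted p = 0.0437), and 4 had an unadjusted p under 0.05. The sum of these markers was thus higher in every homozygous library than in all the others, while Kcnd2, Kcnj11 and Abcc9 were lower there. The sum was highest in homozygous library 2, and its part in the results was not tested. In the lists of endothelial, leukocyte and neuronal or Schwann cell genes 0 were called by edgeR, with 1 of 5, 2 of 6 and 1 of 6 at an unadjusted p under 0.05; the neuronal sum was 4.43 to 7.33 CPM over all libraries.

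For each called member, the 3 tested genes with the smallest root mean square difference of mean-centred log2 CPM over the 9 libraries were listed. For Kcnd2 these were Slc22a3 (0.136), Rragd (0.136) and Mgat3 (0.143). For Kcnj11 they included Slc20a2 (0.071) and Gm49492 (0.072), and for Abcc9 they were Tmem245 (0.059), 9430091E24Rik (0.062) and Kif16b (0.063). The log2 fold change of homozygous against wild-type hearts was -1.29 for Slc22a3, -0.70 for Slc20a2 and -0.77 for Tmem245. Values near those of the members follow from the way these genes were picked, over the same libraries.

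Kcnd2 and Abcc9 have promoters in the RefSeq table of GRCm38.p6, and the 250 bases before each RefSeq start are shown because both genes fell in sum. Kcnj11, the other member called in homozygous against wild-type hearts, has no promoter there. Capitals mark 4 motifs, searched on both strands with overlaps allowed. The GC box was taken as GGGCGG. The box bound by Kruppel-like factors was taken as CACCC. The GATA element was spelled AGATAA. The TATA box was spelled TATAAA. Kcnd2 holds 1 GC box and 1 CACCC box, and Abcc9 holds 1 and 5, while neither holds the other 2 motifs. The last 41 bases shown for Abcc9, with its last CACCC box, match part 47 of the gene at the constant spacing between the builds. That part had 17 to 86 inclusion reads per library, so this stretch was itself read as exon. Over 32851 promoters of the same length, 32.7% hold a GC box, 52.0% a CACCC box, 9.99% the GATA letters and 12.4% the TATA letters. The GC content was 68.8% for Kcnd2 and 66.8% for Abcc9, against a median of 52.4%. Members not called hold these boxes too. GC and CACCC boxes numbered 3 and 3 in Kcnh2, 2 and 4 in Kcnip2, and 2 and 1 in Kcnj2. Kcnd3 and Kcna5 each had 0 and 2. The GC content of these promoters was 53.2% to 73.6%. A link between the motifs and the fall was not tested.
Kcnd2, GRCm38.p6 chr6:21215096-21215345, plus strand: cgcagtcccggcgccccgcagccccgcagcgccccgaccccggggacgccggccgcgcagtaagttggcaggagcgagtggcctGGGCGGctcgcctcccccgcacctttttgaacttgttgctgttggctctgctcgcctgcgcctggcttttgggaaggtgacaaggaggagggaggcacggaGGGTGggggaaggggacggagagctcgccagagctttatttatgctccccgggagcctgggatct
Abcc9, GRCm38.p6 chr6:142702275-142702524, minus strand: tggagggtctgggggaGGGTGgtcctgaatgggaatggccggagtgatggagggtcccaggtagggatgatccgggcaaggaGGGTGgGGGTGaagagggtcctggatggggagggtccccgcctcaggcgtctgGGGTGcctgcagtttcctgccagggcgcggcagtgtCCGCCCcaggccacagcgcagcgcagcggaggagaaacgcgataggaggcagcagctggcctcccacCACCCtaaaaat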

How the data were processed

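Paired-end RNA sequencing of mouse hearts (3 genotypes, 3 libraries each) used a directional kit, per the labels' protocols. The authors deposited inclusion and exclusion read counts, the part length in bases and other columns for each exonic part on GRCm39, and PSI as a fraction from 0 to 1. PSI was checked to equal inclusion reads over part length plus 148 bases, divided by that value plus exclusion reads over 148 bases (largest gap 5.0e-07). Salmon 1.2.1 and cutadapt 1.8 appear in the submitters' processing notes with no stated role, and the counting tool and its use of strand are not given in the sources used here. A read may have been counted in each part it spans, so sums per gene can exceed reads. Intervals of log2 fold changes were built from the SE of the edgeR fit, so they include variation between libraries. No part of a member carried a joined identifier of overlapping genes.

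For expression, the sum of inclusion counts over a gene's parts was fitted by edgeR's quasi-likelihood test (version 4.0.16, with filterByExpr and TMM) over all 9 libraries, in 22049 genes. CPM are scaled with the TMM factors. PSI was fitted with limma 3.58.1 (variance trend) in 55648 parts with 10 or more reads in each library whose PSI reached 0.05 in some library and fell to 0.95 or below in some library. P-values were adjusted by Benjamini-Hochberg over all features tested. The software was Python 3.11.15 with matplotlib 3.10.9, numpy 2.4.6 and pandas 2.3.3, and R 4.3.3 with DESeq2 1.42.0 and data.table (version 1.17.8), and both fits were tested on simulated data. Log2 ratios of single parts had 0.01 CPM added. A part was put on the 3′ or 5′ side of its gene by its midpoint in the summed part length, with strand from GENCODE M21.

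The members, gene lists and tests were chosen with earlier results of these data known. Every member is described. Parts were named if called, if their unadjusted p was under 0.01, or as the member's part with the smallest p in homozygous against wild-type hearts. Genes of other lists were named if called. A gene that met the rule for likeness to a member is not reported here. Isoform exons of Abcc9, Kcnip2 and Kcnd3 and other parts named beside these were chosen after their values were seen. Replicate numbers do not pair libraries across groups in the labels.

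The alternatives were DESeq2, RLE size factors, no filter on low counts, only the 2 groups compared, a replicate block, the library number series as a covariate, parts of mean PSI of at least 0.95 only, joined parts added, and each library left out. For PSI they were a logit scale with 0.01 added, minimums of 20 and 5 reads, no filter on constant parts, no variance trend, and PSI thresholds of 0.05 and 0.2. Leaving out heterozygous and homozygous library 2 together and the use of 1 side of each gene were chosen after seeing the data. No sample was left out.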

Additional observations from a re-analysis of the deposited data

How the results depend on the processing

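The 3 members called in homozygous against wild-type hearts became 6 with no filter on low counts and 1 with the library number series as a covariate, and leaving out each library in turn gave 1 to 4. Over all genes the same settings moved the calls from 969 (4.39%) to 2384 (6.38%), 297 (1.35%) and 295 to 1319 (1.3% to 5.81%). Kcnh2 was also called with DESeq2 (DESeq2 adjusted p = 0.0072) and with only the 2 groups compared (edgeR adjusted p = 0.038). In those fits 2593 and 1345 of all genes were called. With the 5′ side of each gene alone, where 347 genes were called, Abcc9 was not (edgeR adjusted p = 0.0753). Without wild-type library 3 or homozygous library 2 the count was 1, Kcnd2, with 295 and 309 genes called in all. Without heterozygous and homozygous library 2 together it was 3, with 505 genes. The 1 member called in homozygous against heterozygous hearts became 2 with DESeq2, 4 with no filter, 0 with only the 2 groups compared, 2 with the replicate block, 0 with the covariate, and 0 with either the 3′ side or the 5′ side of each gene; leaving out each library gave 0 to 1. The calls over all genes there were 209 as reported, 962 with DESeq2, 995 with no filter, 105 with only the 2 groups, 404 with the block, 166 with the covariate, 219 and 87 with the 3′ and 5′ sides, and 68 to 306 with a library left out. Heterozygous against wild-type hearts gave 0 called members under all 20 alternatives, and all 3 part comparisons gave 0 called member parts under every alternative run. Part 28 of Abcc9 kept a PSI difference of 0.0684 to 0.0771 between homozygous and wild-type hearts, with limma adjusted p from 0.0765 to 0.446. No called value reversed its sign. The cause of each change was not tested. With no filter on low counts, more genes entered the fit.

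The replicate numbers are shared by the groups, but same-numbered libraries deviated together in 1 of 9 pairs (correlation of deviations from the group means above 0.1; range -0.06 to 0.19), so the block was not taken as a pairing. With the block the count of called members was 4 in homozygous against wild-type hearts, where 2207 genes were called in all, with Kcnh2 at an adjusted p of 0.0212. Reads limit the alternative exon of Kcnd3, which had 10 inclusion reads in homozygous library 2.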
